A study of Mus musculus with 10 samples.

Results

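Glutathione is a small thiol tripeptide that cells use to buffer oxidants, to reduce peroxides and to tag reactive compounds for removal. The proximal tubule of the kidney both makes it and breaks it down. It is built from glutamate and cysteine by glutamate-cysteine ligase and then closed with glycine by glutathione synthetase. Transferases couple it to electrophiles, peroxidases spend it on peroxides, a reductase restores it with NADPH, and gamma-glutamyl enzymes take it apart. The genes of this system were read out by a rule on gene symbols: all rows named Gsta, Gstm, Gstp, Gstt, Gstk, Gsto, Mgst, Gpx, Prdx, Ggt or Glrx with a number or no ending, plus Gclc, Gclm, Gss, Gsr, Oplah, Ggct and Chac2. The rule found 45 genes among 16475 measured, and of these 40 passed a filter that drops the dimmest 25% of all genes, used here only as an alternative. Ggt1, Ggct, Gstp1, Gpx4, Prdx5 and Prdx6 fit the rule by name but were not among the 45, so nothing below covers them.

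The samples were kidney cortex depleted of glomeruli, from 5 db/db mice with diabetes and 5 db/m littermates without it. All were BKS mice aged 24 weeks, 1 array per mouse on Affymetrix mouse genome arrays. The db/db mice carry the leptin receptor mutation on both copies and become obese and diabetic, so that diabetes, obesity and lack of leptin signalling cannot be told apart here. Values are log2 expression levels, and a change is db/db minus db/m with its standard error (SE), 5 mice against 5 (n = 5 per group for all means, given with their SD). The test was limma across all genes with Benjamini-Hochberg adjustment and a threshold of 0.05, and "rose" and "fell" are used for genes past it.

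One array stood apart. The mouse db/db 1 correlated with the other 9 arrays at 0.938 to 0.962 across genes, and it was the highest or the lowest db/db mouse for 39 of the 45 genes. Summed over 6 macrophage markers its level was 15.24, against 11.46 to 13.66 in the other db/db mice and 12.46 to 12.75 in db/m mice. Over 4 neutrophil markers it was 14.85, against 8.80 to 12.83 in the other db/db mice and 8.73 to 9.98 in db/m mice. The sum of 5 tubular injury markers, Lcn2 and Havcr1 among them, was 15.37 in db/db 1, 11.94 to 13.15 in the other db/db mice and 11.02 to 11.87 in db/m mice. Most counts are therefore also given without this mouse. It was singled out from these same data, so an adjusted p without it may be too low. The proximal tubule identity of the tissue was clear in both groups: the 6 markers of segments S1 and S2, such as Slc34a1 and Lrp2, summed to 15.14 in db/db 1, 15.74 to 15.76 in the other db/db mice and 15.52 to 15.71 in db/m mice. Without db/db 1 the db/db sums thus lay above all those of db/m, by a small gap, and db/db 1 lay below them. Of these 6 markers 2 had a change above 0 and 4 below with all arrays. In either fit 0 of them passed, beside 6.51% of all genes, or 12.8% without db/db 1. The 6 markers of the last segment, S3, summed to 13.27 to 13.86 in db/db and 15.02 to 15.55 in db/m, so the groups did not overlap. With all arrays 5 of the 6 had a change below 0 and 1 above, from -5.17 to 0.43. Of the 6 markers 4 fell. Podocytes, the glomerular cells that the preparation was meant to deplete, still gave signal: 4 of 5 markers were measured and summed to 11.74 to 11.91 in db/db and 11.16 to 11.50 in db/m. The sums did not overlap, and 4 of the 4 had a change above 0 with all arrays. Of the 4, 2 rose, or 4 without db/db 1, beside 2.96% and 6.84% of all genes. Summed over 4 principal cell markers the level was 10.99 in db/db 1, 12.22 to 12.52 in the other db/db mice and 11.50 to 11.86 in db/m mice. Over 4 distal convoluted and connecting tubule markers it was 13.12 in db/db 1, 14.61 to 14.81 in the other db/db mice and 14.20 to 14.49 in db/m mice. Over 4 fibroblast markers it was 14.05 in db/db 1, 10.62 to 12.13 in the other db/db mice and 11.47 to 11.85 in db/m mice. Sums hide single markers: in the principal cell, distal and fibroblast lists alike, 3 had a change above 0 and 1 below with all arrays. In the tubular injury list 5 of 5 had a change above 0 with all arrays, and 2 rose with or without db/db 1. In tissue RNA, fewer cells of a type and less RNA per cell cannot be told apart, and the part of these marker shifts in the values below was not tested.

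Most of the glutathione genes, 36 of 45, did not pass the test, and those that did moved in both directions. The ligase subunit genes that begin glutathione synthesis fell in db/db cortex, while several transferase genes, the membrane transferases Mgst1 and Mgst3, the gamma-glutamyltransferase gene Ggt6 and the peroxidase gene Gpx7 rose. Of the 45 genes 7 rose and 2 fell, 15.6% and 4.44%, beside 2.96% higher and 3.54% lower (6.51% in either direction) among all genes tested. Without db/db 1 the counts were 11 higher and 3 lower, beside 6.84% and 5.93% of all genes (12.8% in either direction), and all 9 genes called with 10 arrays were among them. The groups did not overlap for 9 of the 45 genes (20%), beside 10.2% of all genes. Without db/db 1 this held for 16 of the 45 (35.6%), beside 15.4% of all genes. Without db/m 3 the number of rises was 4, beside 234 genes higher among all. The number of falls was 1 without any one of db/db 2, 3, 4, 5 or db/m 1, 2, 4, 5. Those fits held 306 to 457 lower among all genes. The median change was 0.08 over the 45 genes and -0.03 over all genes, or 0.16 and -0.0059 without db/db 1.

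**Figure D1:**
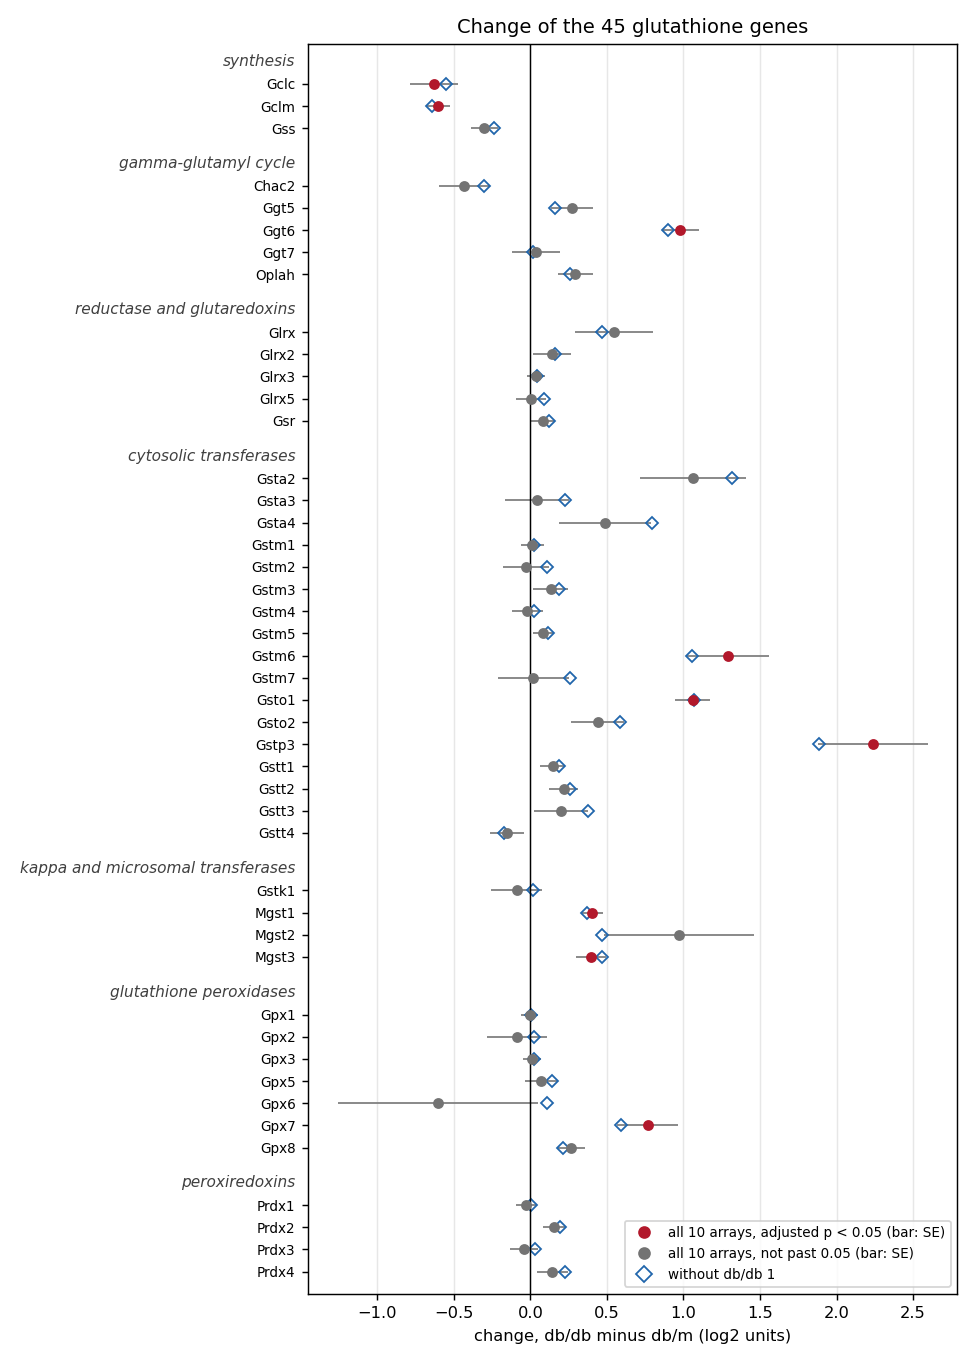
Change of each of the 45 genes, db/db minus db/m in log2 units, by class. Filled circles show the fit of all 10 arrays with bars for the SE, red where the adjusted p was under 0.05, and open diamonds the fit without db/db 1. The 3 synthesis genes lie left of 0, and Gstp3 lies farthest right at 2.24.

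In synthesis, both subunits of glutamate-cysteine ligase were lower in db/db. Gclm encodes the modifier subunit, which raises the enzyme's efficiency. Its level was 12.41, 12.38, 12.12, 12.18 and 12.23 in db/db mice 1 to 5, against 12.79, 12.89, 12.84, 12.85 and 12.96 in db/m mice 1 to 5. Every db/db mouse lay below every db/m mouse, and db/db 1 was here the mouse nearest to db/m. Gclm averaged 12.26 ± 0.13 in db/db and 12.87 ± 0.06 in db/m, a change of -0.60 ± 0.08 or 1.52-fold lower (limma adjusted p = 0.00224), and it passed in all 10 fits that left out 1 array.

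Gclc encodes the catalytic subunit, which carries out the rate-limiting step. It stood at 10.84, 11.24, 11.33, 11.23 and 11.13 in db/db mice, against 12.02, 12.22, 11.44, 11.69 and 11.55 in db/m mice. The groups did not overlap, but db/m 1 and db/m 2 were well above the other db/m mice. The change was -0.63 ± 0.16, 1.55-fold lower, with adjusted p = 0.0439. The call rested on most of the arrays: it held without db/db 1 (0.0431) and without db/m 3 (0.0455), and was lost without db/db 2 (0.0817), db/db 3 (0.0637), db/db 4 (0.0712), db/db 5 (0.079), db/m 1 (0.101), db/m 2 (0.0722), db/m 4 (0.0822) or db/m 5 (0.055).

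Gss encodes glutathione synthetase, the second step. Its level was 11.92, 12.29, 12.11, 12.27 and 12.28 in db/db mice, against 12.45, 12.53, 12.49, 12.55 and 12.35 in db/m mice. The groups were apart by a small gap, and with all 10 arrays the change of -0.30 ± 0.09 did not pass (adjusted p = 0.0701). Without db/db 1, the lowest mouse, it was -0.24 with adjusted p = 0.047. The class as a whole thus held 2 falls among 3 genes, or 3 of 3 without db/db 1, with a median of -0.60 and -0.55. Among all genes 3.54% were lower with all arrays and 5.93% without db/db 1.

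**Figure D2:**
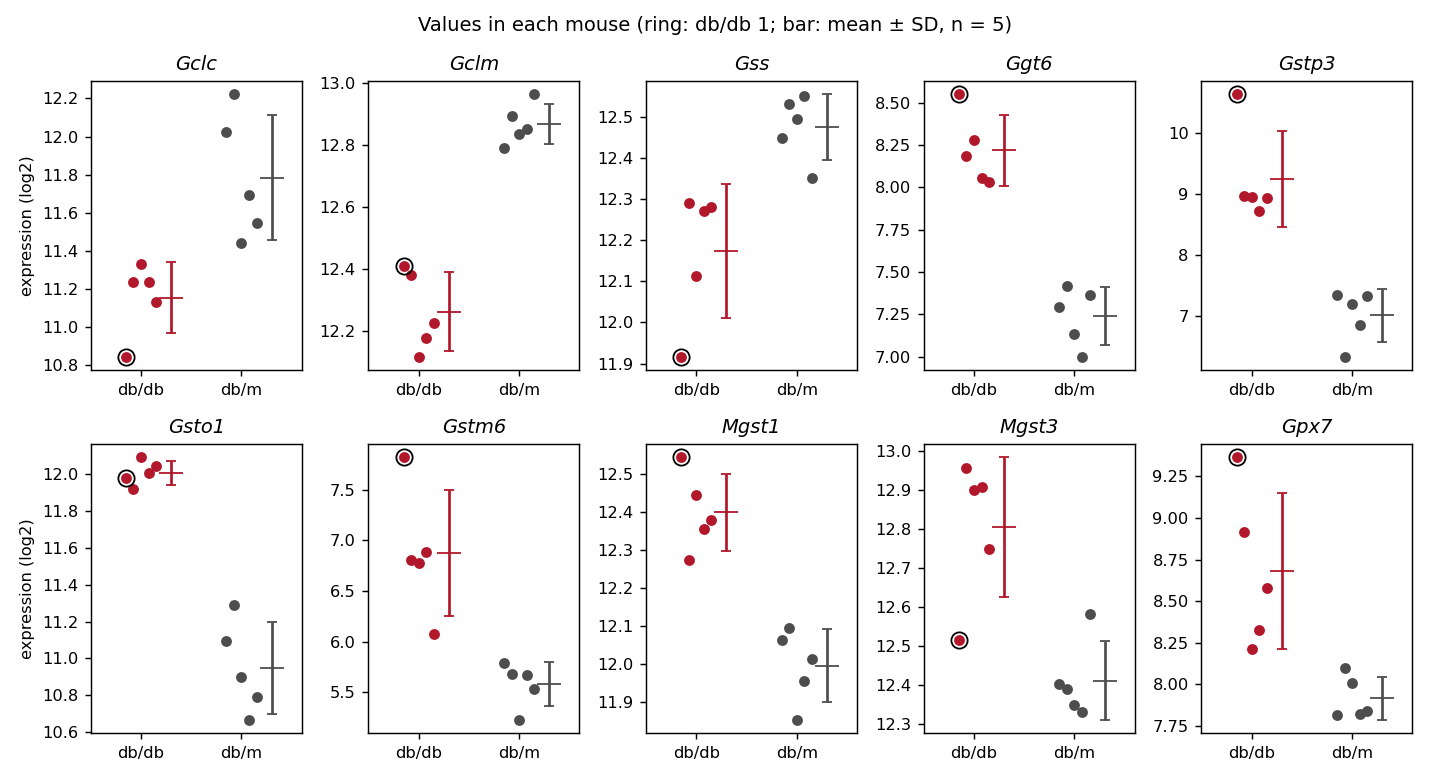
Log2 expression in each mouse for the 9 genes past the threshold and Gss, db/db left of db/m. Dots are mice, the ring marks db/db 1, and bars give mean ± SD of 5 mice. The groups overlap in the panel of Mgst3 alone, where db/db 1 at 12.52 lies below db/m 5 at 12.58.

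Of the 5 measured genes of the gamma-glutamyl cycle, 1 rose and 0 fell, beside 2.96% and 3.54% of all genes. Without db/db 1 the counts were again 1 and 0, beside 6.84% and 5.93% of all genes. Ggt1, Ggct and any further enzymes of the cycle were not analysed here. Ggt6, of the gamma-glutamyltransferase family, was 8.55, 8.19, 8.28, 8.05 and 8.03 in db/db mice and 7.29, 7.42, 7.13, 7.00 and 7.36 in db/m mice. All db/db mice were above all db/m mice. It rose 1.97-fold (0.98 ± 0.12, adjusted p = 0.00181), past the threshold whichever single array was left out. Chac2, a cytosolic enzyme that degrades glutathione slowly, had a change of -0.43 ± 0.17 that did not pass (adjusted p = 0.159). Its values were 10.27 to 11.10 in db/db and 10.97 to 11.64 in db/m, and the groups overlapped. The other 3 genes of the class did not pass, with changes of 0.04 to 0.29. These were Ggt5, which acts on leukotriene C4, Ggt7, and Oplah, the oxoprolinase that returns glutamate from the cycle.

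The transferases of the cytosol held the largest rise. Gstp3, a class pi transferase gene, stood at 10.64, 8.97, 8.94, 8.72 and 8.93 in db/db mice, against 7.33, 6.32, 7.19, 6.84 and 7.33 in db/m mice. The other diabetic mice lay close together and db/db 1 far above them, and every db/db mouse was above every db/m mouse. The change was 2.24 ± 0.36, 4.71-fold (adjusted p = 0.00753), and 1.89 ± 0.20 or 3.70-fold without db/db 1 (adjusted p = 0.000517). Gstp3 passed in all 10 fits that left out 1 array. Its relative Gstp1 was not among the genes read out.

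Gsto1 encodes the omega class transferase that reduces dehydroascorbate and removes glutathione from proteins. Its level was nearly the same in all diabetic mice, at 11.98, 11.92, 12.09, 12.00 and 12.04, against 11.10, 11.29, 10.90, 10.67 and 10.79 in db/m mice. With an SD of 0.07 in db/db and 0.25 in db/m, it rose 2.08-fold (1.06 ± 0.11) with the lowest adjusted p among the 45 genes, 0.000843, and passed in all 10 fits that left out 1 array. Its neighbour on chromosome 19, Gsto2, was 5.68, 6.22, 6.53, 6.27 and 6.54 in db/db mice and 6.22, 5.73, 5.76, 5.67 and 5.66 in db/m mice. The lowest db/db mouse was db/db 1 and the highest db/m mouse was db/m 1, and the groups overlapped. The change of 0.44 ± 0.17 did not pass (adjusted p = 0.172), and without db/db 1 Gsto2 rose by 0.58 (adjusted p = 0.0162).

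Gstm6 was the 1 class mu gene that passed. It was 7.82, 6.81, 6.78, 6.88 and 6.07 in db/db mice, against 5.79, 5.69, 5.23, 5.67 and 5.53 in db/m mice, with no overlap and with db/db 1 the highest. The change was 1.29 ± 0.27, 2.45-fold (adjusted p = 0.0203), and 1.06 without db/db 1 (adjusted p = 0.00469). The call was lost without db/m 3 (adjusted p = 0.0612). The class mu genes sit side by side on chromosome 3, with Gstm6 between Gstm7 and Gstm3, and the other 6, Gstm1 to Gstm5 and Gstm7, did not pass. Class alpha, mu and pi genes have close relatives in the genome, so a gene's probes need not measure that copy alone.

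The class alpha gene Gsta2 separated the other db/db mice from db/db 1. It was 12.28, 13.29, 13.71, 13.63 and 13.57 in db/db mice, against 12.99, 12.84, 11.56, 11.86 and 11.92 in db/m mice. The values of db/m 1 and db/m 2 were above that of db/db 1. With all arrays the change of 1.06 ± 0.35 did not pass (adjusted p = 0.105). Leaving out db/db 1, Gsta2 rose by 1.32, 2.49-fold (adjusted p = 0.016). Gsta4, which clears the lipid peroxidation product hydroxynonenal, was 11.08, 12.29, 12.90, 12.67 and 12.57 in db/db mice and 12.09, 11.95, 11.57, 11.76 and 11.69 in db/m mice. For Gsta4 db/db 1 lay below every db/m mouse and the other diabetic mice lay above every one. The change was 0.49 ± 0.30 (adjusted p = 0.384) with all arrays, and without db/db 1 it rose by 0.79 (adjusted p = 0.00586).

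Of the class theta genes Gstt3 showed that pattern on a smaller scale. It had 10.44 in db/db 1, 11.18 to 11.50 in the other db/db mice and 10.87 to 11.06 in db/m mice. The change was 0.20 ± 0.18 (adjusted p = 0.558), and Gstt3 rose by 0.38 without db/db 1 (adjusted p = 0.0145). The remaining 10 cytosolic transferase genes (Gsta3, Gstm1 to Gstm5, Gstm7, Gstt1, Gstt2 and Gstt4) had changes from -0.15 to 0.22 and adjusted p of 0.216 or more. In all, 3 of 17 cytosolic transferase genes rose, or 7 of 17 without db/db 1, beside 2.96% and 6.84% of all genes. In either fit 0 of the 17 fell, beside 3.54% and 5.93% of all genes. The median change of the 17 was 0.15, or 0.26 without db/db 1.

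**Figure D3:**
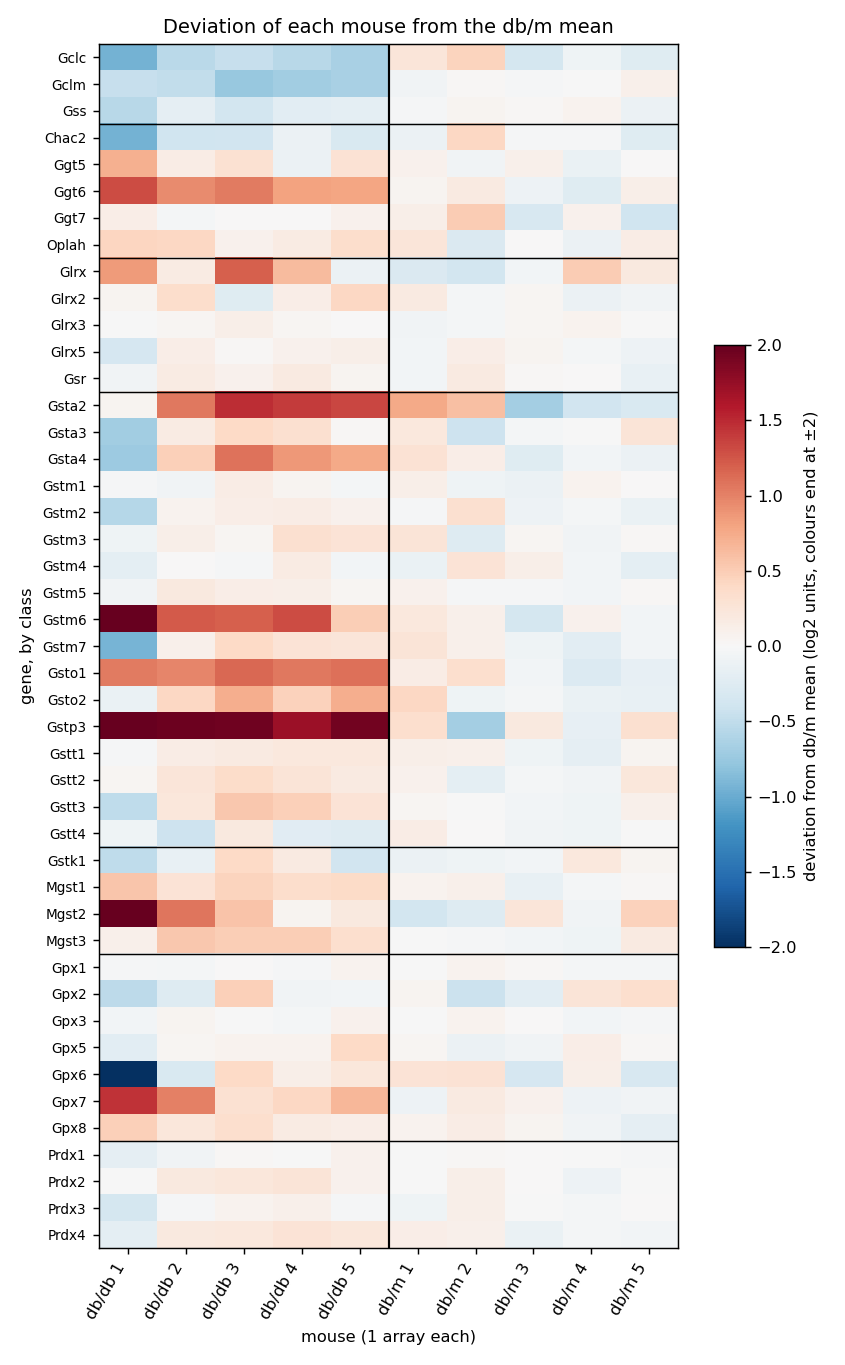
Deviation of each mouse from the db/m mean in log2 units for the 45 genes, ordered by class, with db/db mice left of the black line and db/m mice right of it. Red is above and blue below the db/m mean, and colours end at 2 units. Gclc and Gclm are blue and Gstp3, Gsto1 and Ggt6 red in all 5 db/db mice, whereas Gsta4 is blue in db/db 1 (11.08) and red in the other db/db mice (12.29 to 12.90).

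Of the 4 kappa and microsomal transferase genes, Mgst1 and Mgst3 rose, by less than Gstp3, Gsto1 and Gstm6, and Mgst2 and Gstk1 did not pass. Among all genes 2.96% were higher. Without db/db 1 again 2 of the 4 rose and 0 fell, beside 6.84% and 5.93% of all genes. Mgst1, an abundant transferase and peroxidase of the endoplasmic reticulum and the outer mitochondrial membrane, was 12.54, 12.27, 12.44, 12.35 and 12.38 in db/db mice, against 12.06, 12.10, 11.85, 11.96 and 12.01 in db/m mice. All db/db mice were above all db/m mice. It rose 1.32-fold (0.40 ± 0.07, adjusted p = 0.0129) and passed in all 10 fits that left out 1 array. Mgst3, which also reduces lipid peroxides, was 12.52, 12.96, 12.90, 12.91 and 12.75 in db/db mice, against 12.40, 12.39, 12.35, 12.33 and 12.58 in db/m mice. Here db/db 1 and db/m 5 overlapped. Mgst3 rose by 0.40 ± 0.10 (adjusted p = 0.0387), and by 0.47 without db/db 1 (adjusted p = 0.00357).

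The Mgst3 call held in 1 more fit, without db/m 5 (adjusted p = 0.0432). It was lost without db/db 2 (0.0909), db/db 3 (0.0846), db/db 4 (0.0807), db/db 5 (0.0612), db/m 1 (0.0818), db/m 2 (0.0751), db/m 3 (0.103) or db/m 4 (0.0925), and with arrays centred on their medians (0.126). Mgst2, a leukotriene C4 synthase, was 8.10 in db/db 1, 5.19 to 6.20 in the other db/db mice and 4.76 to 5.60 in db/m mice. Its change of 0.97 ± 0.49 did not pass (adjusted p = 0.287), and was 0.47 without db/db 1 (adjusted p = 0.233). The mitochondrial and peroxisomal transferase gene Gstk1 did not pass either (adjusted p = 0.801).

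Among the 7 peroxidase genes, which did not include Gpx4, Gpx7 rose and 0 fell, beside 2.96% and 3.54% of all genes. Without db/db 1 the counts were again 1 and 0, beside 6.84% and 5.93%. The highly expressed Gpx3 and Gpx1 had narrow intervals around 0. Gpx3, the secreted plasma peroxidase that the proximal tubule supplies, was 14.23 to 14.36 in db/db and 14.23 to 14.35 in db/m. Its change was 0.0099 ± 0.06 with a 95% interval of -0.12 to 0.14 (adjusted p = 0.942). Gpx1, the cytosolic peroxidase, was 13.77 to 13.87 in db/db and 13.75 to 13.87 in db/m, with a 95% interval of the change of -0.13 to 0.12 (adjusted p = 0.975). The groups overlapped in both genes. Both lie near the top of a scale that ended at 14.53, and whether differences are compressed there was not tested.

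Gpx7, a peroxidase of the endoplasmic reticulum, was 9.37, 8.92, 8.22, 8.33 and 8.58 in db/db mice, against 7.82, 8.10, 8.01, 7.82 and 7.84 in db/m mice. There was no overlap, and db/db 1 and db/db 2 were the highest. Gpx7 rose 1.70-fold (0.77 ± 0.20, adjusted p = 0.0487), or 1.51-fold without db/db 1 (adjusted p = 0.0205). It lies on chromosome 4, as do the leptin receptor gene and Prdx1, which did not pass (change -0.03). Whether its position bears on the Gpx7 values was not tested. The call also held without db/db 3 (0.0388) and db/db 4 (0.0487), and was lost without db/db 2 (0.111), db/db 5 (0.0752), db/m 1 (0.106), db/m 2 (0.0722), db/m 3 (0.102), db/m 4 (0.109) or db/m 5 (0.101), and when quantile normalisation was repeated (0.0519).

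Its relative Gpx8 had a change of 0.27 ± 0.09 that did not pass (adjusted p = 0.118), with 10.89 to 11.23 in db/db and 10.57 to 10.90 in db/m. Gpx6 was 7.80 in db/db 1, against 10.96 to 11.66 in the other db/db mice and 10.92 to 11.54 in db/m mice. The change of -0.60 ± 0.66 did not pass (adjusted p = 0.642) and was 0.11 without db/db 1 (adjusted p = 0.77). The low value was that of a single mouse, and the other diabetic mice overlapped with db/m. Gpx2, the peroxidase of gut epithelium, and Gpx5, that of the epididymis, did not pass, with changes of -0.09 and 0.07.

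None of the measured genes for enzymes that restore thiols passed. Gsr, the reductase that turns oxidised glutathione back, was 11.58 to 11.83 in db/db and 11.50 to 11.83 in db/m, a change of 0.08 ± 0.08 with a 95% interval of -0.09 to 0.26 (adjusted p = 0.598). Glrx, the cytosolic glutaredoxin, was 10.51, 9.83, 10.85, 10.30 and 9.54 in db/db mice, against 9.38, 9.30, 9.61, 10.17 and 9.86 in db/m mice. Its spread between mice was wide in both groups and the groups overlapped (0.55 ± 0.26, adjusted p = 0.253). Glrx2 of mitochondria had a change of 0.14 ± 0.13 (adjusted p = 0.56), and the iron-sulphur glutaredoxins Glrx3 and Glrx5 had changes of 0.03 and 0.0048. Of the 5 genes 0 passed by limma with or without db/db 1, beside 6.51% and 12.8% of all genes. With all arrays 0 had an unadjusted p under 0.05, beside 21.5% of all genes.

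Peroxiredoxins, which remove peroxide with thioredoxin, showed 0 of 4 genes past the threshold by limma, beside 6.51% of all genes. Without db/db 1 it was again 0 of 4, beside 12.8% of all genes. At an unadjusted p under 0.05 with all arrays there were 0, beside 21.5% of all genes. Prdx5 and Prdx6 were not among the 4. Prdx2 was 12.05 to 12.32 in db/db and 11.95 to 12.18 in db/m, a change of 0.15 ± 0.07 (adjusted p = 0.267). Prdx4 of the endoplasmic reticulum had 11.73 in db/db 1, 12.11 to 12.20 in the other db/db mice and 11.79 to 12.06 in db/m mice. Its change was 0.14 ± 0.10 (adjusted p = 0.46), or 0.22 without db/db 1 (adjusted p = 0.066). Prdx1 and the mitochondrial Prdx3 had changes of -0.03 and -0.04.

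The promoters of some of these genes are shown because Gclm and Mgst1, which moved in opposite directions, share a letter pattern. The motif TGACNNNGC is the core of the antioxidant response element, to which the factor Nrf2 binds. It was searched on both strands from 250 bases before to 50 bases after each start in RefSeq (GRCm38.p6). Promoter windows were found for 39 of the 45 genes, and 6 of these (15.4%) held it, beside 14.0% of 27025 genes with a window. The 6 were Gclm, Mgst1, Prdx1, Gsta3, Gstm5 and Gstm7. Gclc, Gsr, Gsta4, Gstt2, Ggt5 and Oplah had no window, so they were not searched. The 250 bases before the start follow, each on its gene's strand, for Gclm (chr3:122245307-122245556, plus strand), the first start of Mgst1 (chr6:138140277-138140526, plus strand), Prdx1 (chr4:116685349-116685598, plus strand), Gsto1 (chr19:47854723-47854972, plus strand) and Gstp3 (chr19:4059448-4059697, minus strand), with the motif in capitals.
Gclm: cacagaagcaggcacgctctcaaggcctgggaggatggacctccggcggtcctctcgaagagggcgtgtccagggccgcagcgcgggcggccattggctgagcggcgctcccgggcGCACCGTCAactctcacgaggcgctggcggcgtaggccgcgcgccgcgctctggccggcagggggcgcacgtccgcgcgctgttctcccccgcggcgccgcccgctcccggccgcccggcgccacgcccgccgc
Mgst1: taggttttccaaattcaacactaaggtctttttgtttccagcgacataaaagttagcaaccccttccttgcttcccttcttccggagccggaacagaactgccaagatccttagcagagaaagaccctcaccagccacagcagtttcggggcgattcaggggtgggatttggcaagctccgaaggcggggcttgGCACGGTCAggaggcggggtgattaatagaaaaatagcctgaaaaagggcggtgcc
Prdx1: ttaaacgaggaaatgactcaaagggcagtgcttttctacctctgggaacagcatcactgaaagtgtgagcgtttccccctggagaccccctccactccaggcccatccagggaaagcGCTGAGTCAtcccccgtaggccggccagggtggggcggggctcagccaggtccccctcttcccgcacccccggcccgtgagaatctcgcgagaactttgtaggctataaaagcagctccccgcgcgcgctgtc
Gsto1: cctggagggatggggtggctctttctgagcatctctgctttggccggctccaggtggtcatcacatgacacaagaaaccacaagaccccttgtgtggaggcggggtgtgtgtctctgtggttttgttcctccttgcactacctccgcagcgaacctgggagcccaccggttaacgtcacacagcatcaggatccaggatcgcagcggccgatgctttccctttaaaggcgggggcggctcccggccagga
Gstp3: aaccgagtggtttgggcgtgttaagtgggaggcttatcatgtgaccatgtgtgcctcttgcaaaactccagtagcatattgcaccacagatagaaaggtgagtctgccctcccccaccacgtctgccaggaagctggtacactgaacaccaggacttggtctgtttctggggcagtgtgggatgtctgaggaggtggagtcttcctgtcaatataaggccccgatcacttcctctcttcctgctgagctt
In Gclm, Mgst1 and Prdx1 the motif runs on the opposite strand, as its reverse complement, and the match in Prdx1 overlaps the AP-1 site TGAGTCA. Of the 6 genes with a match, Gclm fell, Mgst1 rose, and Prdx1, Gsta3, Gstm5 and Gstm7 did not pass. Gsto1 and Gstp3, which rose, held no match in this window. Whether the motif bears on any change was not tested. A match describes letters only, and more distant elements were not searched.

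Around these genes, a list of 56 genes of glutathione supply, use and export was read from the same fit, and 52 were measured. Of the 52, 2 rose and 2 fell (2.96% and 3.54% of all genes), and 6 rose and 7 fell without db/db 1 (6.84% and 5.93% of all genes). The median change of the 52 was -0.03, as for all genes. The rises were both in ABC pumps that carry glutathione conjugates out of cells.

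Abcc4, a pump for organic anions and cyclic nucleotides on the urinary side of the proximal tubule, was 12.34, 11.76, 12.25, 12.12 and 11.95 in db/db mice, against 10.89, 10.56, 10.55, 10.63 and 10.75 in db/m mice. Abcc1, the pump known for export of glutathione and its conjugates, was 9.60, 9.05, 9.28, 9.08 and 9.28 in db/db mice, against 8.44, 8.41, 8.36, 8.61 and 8.24 in db/m mice. In both genes every db/db mouse was above every db/m mouse. Abcc4 rose 2.65-fold (1.41 ± 0.12, adjusted p = 0.000357) and Abcc1 1.80-fold (0.85 ± 0.11, adjusted p = 0.00357) and both passed whichever single array was left out. Abcc3 ranged from 6.86 to 9.65 in db/db and from 6.10 to 6.39 in db/m, and passed without db/db 1 (1.27, adjusted p = 0.00976) but not with all arrays (1.70 ± 0.45, adjusted p = 0.0508). Abcc2, the apical conjugate pump, had a change of 0.13 ± 0.14 (adjusted p = 0.642), and 0.26 without db/db 1 (adjusted p = 0.0479).

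In cysteine supply, Cbs fell. It encodes the enzyme that commits homocysteine to cysteine synthesis, and was 11.80, 12.31, 12.36, 12.43 and 12.50 in db/db mice, against 12.94, 12.96, 12.93, 12.85 and 12.92 in db/m mice. The groups did not overlap and db/db 1 was the lowest. The change was -0.64 ± 0.12, 1.56-fold lower (adjusted p = 0.0149), past the threshold whichever single array was left out. Csad, on the path from cysteine to taurine, had a change of -0.63 ± 0.17 (adjusted p = 0.0528), and fell by 0.46 without db/db 1 (adjusted p = 0.0061). Bhmt, which returns homocysteine to methionine, was 8.49 in db/db 1, 11.86 to 12.43 in the other db/db mice and 9.14 to 10.61 in db/m mice. Its change of 1.56 ± 0.71 did not pass (adjusted p = 0.241), and without db/db 1 it rose 4.89-fold (2.29, adjusted p = 0.00191).

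Esd, the hydrolase that frees glutathione from its formaldehyde adduct, was the other fall. It was 9.74, 10.54, 10.53, 10.77 and 10.61 in db/db mice and 10.96, 11.19, 11.29, 11.33 and 11.13 in db/m mice, with no overlap (-0.74 ± 0.18, adjusted p = 0.0369). Its call held without db/db 1 (0.00361) or db/db 4 (0.0372) and was lost without db/db 2 (0.0693), db/db 3 (0.0648), db/db 5 (0.0523), db/m 1 (0.0539), db/m 2 (0.0722), db/m 3 (0.0972), db/m 4 (0.0888) or db/m 5 (0.071). Changes in its list of 11 detoxifying enzymes ran from -0.74 to -0.02, and the other 10 genes did not pass.

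Without db/db 1 the cytosolic glutathione-degrading gene Chac1 fell by 1.02 (adjusted p = 0.0137), the aminopeptidase gene Lap3 by 0.31 (0.00823), the prostaglandin D synthase gene Hpgds by 0.52 (0.0498) and the NADPH-forming malic enzyme gene Me1 by 0.27 (0.0479), and the selenoprotein gene Selenow rose by 0.26 (0.04). With all 10 arrays the adjusted p of these 5 genes was 0.506, 0.0814, 0.85, 0.0511 and 0.0534. In the Nrf2 list, which holds Nfe2l2 and its targets Nqo1 and Hmox1, 0 of 8 genes passed by limma in either fit. Among all genes 6.51% passed with all arrays and 12.8% without db/db 1. With all arrays the lowest adjusted p of the list was 0.602, and 0 genes had an unadjusted p under 0.05, beside 21.5% of all genes. The thioredoxin list held 0 of 10 genes past the threshold by limma with all arrays, beside 6.51% of all genes. It held 3 at an unadjusted p under 0.05, where 21.5% of all genes lay.

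**Figure D4:**
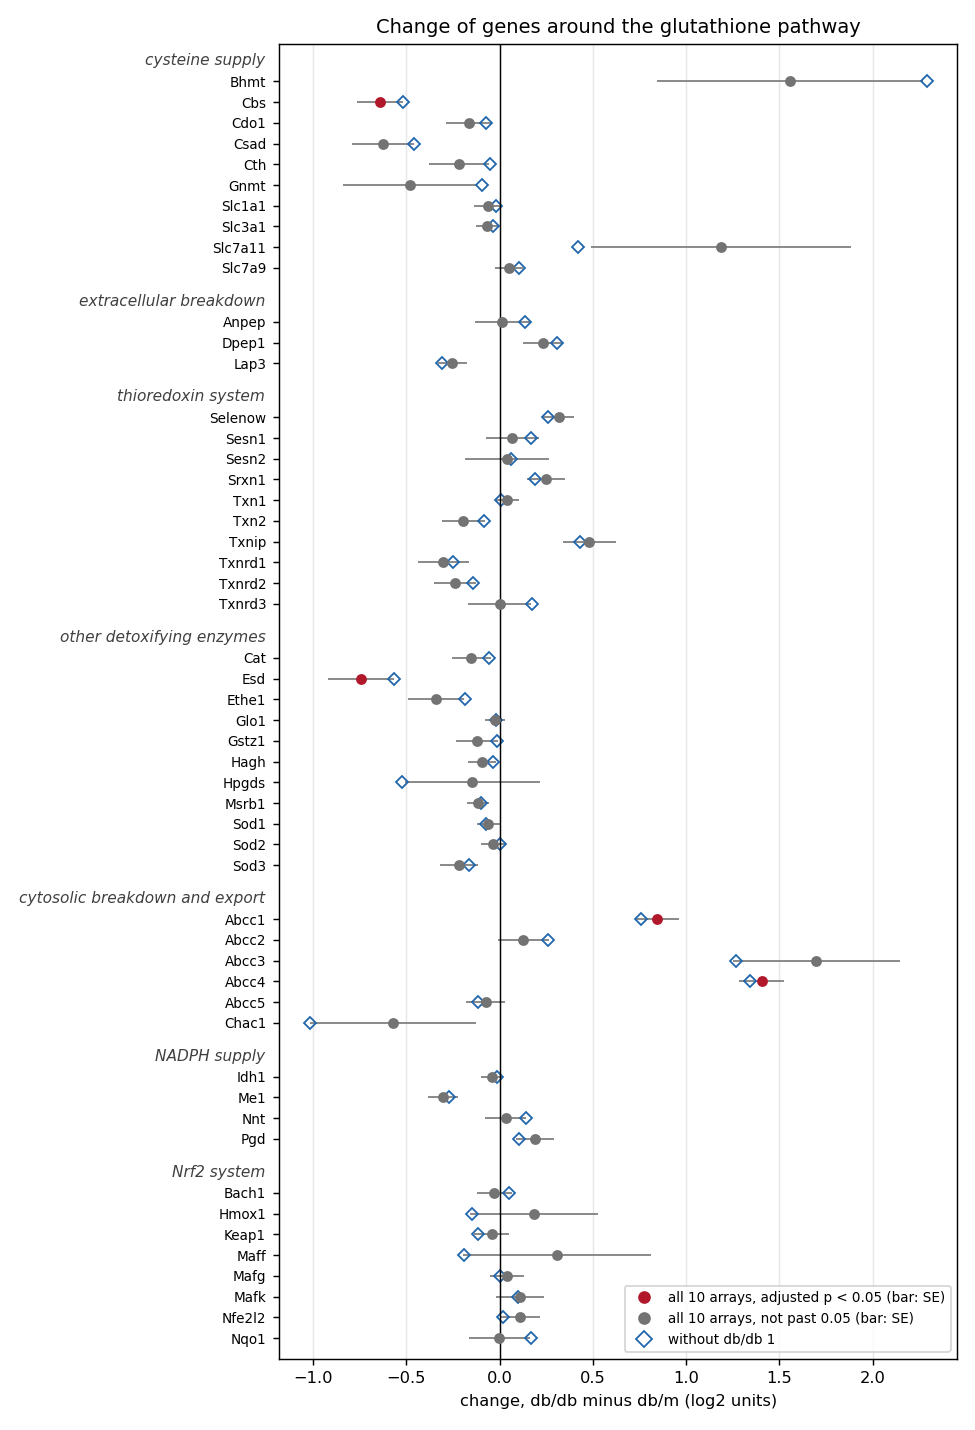
Change of 52 genes around the pathway, db/db minus db/m in log2 units, by list. Symbols are as in the plot of the 45 genes: circles with SE for all 10 arrays, red where past the threshold, and diamonds without db/db 1. Abcc1 and Abcc4 are the red points on the right, Cbs and Esd those on the left.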

How the data were processed

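Gene expression was measured on 1 array per mouse in 5 db/db and 5 db/m kidney cortex samples, grouped by the titles in the labels. The mice are separate animals, per the labels. The authors' log2 table holds RMA output according to GEO's notes (per the submitters' processing notes), 1 value per Entrez Gene ID. The version and the way probes were regrouped are not given in the sources used here. Background adjustment in RMA can shrink differences of dim genes, and no filter on dim genes was used in the fit. The values were used as deposited, with array medians of 8.46 to 8.66. The table's 64 control rows were left out, which leaves 16475 genes, 15780 of them with 1 symbol in the supplied annotation and 695 not listed there. All 45 members matched the RefSeq gene table by Entrez ID. Arrays were compared pairwise for copies: in each of 45 pairs some gene differed by 3.07 or more. Arrays give no counts, and their number limits the precision.

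The comparison was limma 3.58.1 in R 4.3.3 (lmFit, eBayes without trend, two-sided, all 10 arrays), with adjustment over all genes. Its code was also run on simulated data with independent noise and no outlying array. That run cannot show how the test handles an array such as db/db 1. The members and lists were chosen with earlier results of these data known. Named were members past the threshold with all arrays or without db/db 1, the 2 lowest p per class, Gclc, Gclm, Gss, Gsr, and neighbours past the threshold in either fit; Gpx1, Gpx3, Gpx6 and Mgst2 were added after their values were seen, and further members are named with changes only. Marker sums are log2 of summed linear values. Figures were drawn with matplotlib 3.10.9. Alternatives were the mouse number as a block, the filter on dim genes, repeated quantile normalisation, median centring, trend and robust eBayes, array weights, each array left out, stricter thresholds and control rows kept.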

Additional observations from a re-analysis of the deposited data

Results flagged for a closer look

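In groups of 5 mice, 1 mouse lay far from the other 4 in 12 of the 76 groups of named genes tested, and 9 of the 12 were db/db 1. Chance gives about 5% of groups, but some of these genes were named because they passed only without db/db 1 or after their values in that mouse were seen, so neither number is to be read against chance. Among the 45 glutathione genes, db/db 1 was highest for Gstp3 at 10.64, with the next mouse at 8.97, and lowest for Prdx4 at 11.73 (next 12.11) and Gpx6 at 7.80 (next 10.96). The other 2 were in db/m: Gsto2 at 6.22 in db/m 1, with the next at 5.76, and Mgst3 at 12.58 in db/m 5, with the next at 12.40.

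Among the neighbouring genes, db/db 1 was lowest for Bhmt at 8.49 (next 11.86), Cbs at 11.80 (next 12.31), Esd at 9.74 (next 10.53) and Abcc2 at 12.05 (next 12.65). It was highest for Lap3 at 13.47 (next 13.21) and Chac1 at 7.76 (next 5.82). Abcc2 was also low in db/m 2, at 12.25, with the next db/m mouse at 12.48. Cbs, Esd and Gstp3 passed with and without db/db 1.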

How the results depend on the processing

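The 7 rises and 2 falls were 4 and 1 with the mouse number as a replicate block, but the numbers did not pair the mice, since same-numbered mice correlated at -0.09 to 0.01, and the neighbours then held 1 fall. With the block and without mouse 1 of both groups falls numbered 1, and 4 neighbours rose. Array weights gave 13 rises, with 7 neighbours higher and 6 lower. At an adjusted p under 0.01 there were 3 rises, 1 fall and 0 neighbours lower (2 with an adjusted p under 0.05). Leaving out both db/db 1 and db/db 2, chosen after seeing the data, gave 11 rises and 1 fall, with 4 neighbours higher and 6 lower. Neighbours numbered 4 higher and 4 lower without dim genes, where fewer genes were tested, 4 lower with median centring, and 4 and 5 with trend and robust eBayes. Leaving out 1 array gave 4 to 11 rises, 1 to 3 falls, 2 to 6 neighbours higher and 1 to 7 lower. Over all genes, the main fit gave 488 higher and 584 lower, and median centring 363 and 751. The block gave 180 and 213, or 548 and 437 without mouse 1 of both groups. Array weights gave 1346 and 1295, and an adjusted p under 0.01 gave 132 and 147. Leaving out db/db 1 and 2 gave 989 and 845, the dim filter 551 and 662, and trend and robust eBayes 495 and 599. Leaving out 1 array gave 234 to 1127 higher and 256 to 977 lower. The counts above are to be read beside these. Direction turned for 4 of 38 named genes, none past the threshold with all arrays. Gpx1 was 0.0024 with the block and without mouse 1, 0.0128 with repeated quantile normalisation, 0.0149 without db/db 1 and 2, and -0.0225 to 0.0128 with 1 array left out. Gpx3 was -0.0104 with repeated quantile normalisation, -0.0579 with median centring and -0.00956 to 0.0286 with 1 array left out. Gpx6 was 0.18 with the block and without mouse 1, 0.11 with array weights, 0.25 without db/db 1 and 2, and -0.855 to 0.11 with 1 array left out. Hpgds was -0.523 to 0.0552 with 1 array left out, the highest without db/db 5. Of 759 values of these genes 629 kept direction and side of the threshold, 51 lost the call and 61 gained it. The causes were not tested.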
